A study of Mus musculus with 15 samples.

Results

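Immediate-early genes are transcribed within minutes of a growth factor, stress or damage signal, from transcription factors that already sit in the cell. The proteins of the Fos and Jun families pair with each other to form AP-1, a dimer that binds DNA through a leucine zipper and a basic region. Egr1 is a zinc finger factor that answers the same kinase signals, Atf3 is a stress-induced partner of Jun proteins, and Ier2 is a short nuclear protein induced alongside them. The set described here held 10 genes chosen by symbol (Fos, Fosb, Fosl1, Fosl2, Jun, Junb, Jund, Egr1, Atf3 and Ier2), and all 10 were found among the 20910 genes of the cultured cell table and the 25038 genes of the RPE/choroid table. All 10 passed the filter on low counts (at least 5 counts in at least 3 libraries) in every comparison.

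The study asked what loss of Prom1, which encodes a pentaspan membrane glycoprotein, does to the transcriptome of the retinal pigment epithelium (RPE). Cultured mouse RPE cells (mRPE) came from pooled C57/BL6J mice and were immortalised with HPV E6/E7. They carried Cas9 and received 1 guide RNA against Prom1 to give the clones KO22 and KO26, and the 9 libraries comprise 4 of WT, 3 of KO22 and 2 of KO26. Each clone is a single line, so a clone and the loss of Prom1 cannot be told apart within it. In situ, Prom1 fl/fl mice were crossed with RPE65-Cre mice and gavaged with tamoxifen, and RPE/choroid was taken as 3 WT and 3 Prom1-KO libraries. That tissue also holds choroidal cells, which the Cre does not target. Ages are not given in the labels, which also do not say whether WT mice carried the Cre or received tamoxifen. Nothing in the labels says that the libraries of a group came from separate cultures, so p-values for mRPE measure the spread between these libraries, which may be technical.

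Total counts were 8076188 to 27537863 per mRPE library and 48154444 to 61766179 per RPE/choroid library. The library names give 2 mRPE batches, 8995 with 1 library of each group and 9262 with the others, in which WT has 3, KO22 has 2 and KO26 has 1. In the RPE/choroid, mitochondrially encoded genes took 64.9% to 71.3% of the counts in 5 libraries and 84.2% in Prom1-KO replicate 3, which stands apart. Prom1 itself was not analysed here in mRPE. In the RPE/choroid its level in CPM (counts scaled to the TMM-adjusted library size) was 48.7, 49.6 and 53.3 in WT and 49.9, 48.1 and 35.5 in the libraries labelled Prom1-KO, a log2 fold change of -0.18 ± 0.16 (SE) that did not pass (adjusted p = 0.824, edgeR). Of 10 RPE markers, 7 (Rpe65, Rlbp1, Lrat, Ttr, Rgr, Tyr and Tyrp1) are not listed in the mRPE table used here, and the other 3 sum to 6.54 to 19.8 CPM. In the RPE/choroid the same 10 markers sum to 2050 to 2958 CPM in WT and 615.8 to 827.7 CPM in the libraries labelled Prom1-KO, with no overlap.

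Of the 10 genes, 7 were matched to a RefSeq promoter window on the GRCm38.p6 assembly, and Fosl1, Egr1 and Ier2 were not matched. For 4 of the 7 (Fos, Fosb, Jun and Atf3) the first 30 transcribed bases of the window began within 10 bases of the start of a GENCODE vM39 transcript of the gene. Those of Fosl2 began 299 bases inside a transcript and those of Junb and Jund were found in none, so the windows of these 3 may not be promoters in that annotation and were left out of the counts. Of the 4, 3 are shown because of the values that follow: Atf3 was higher in both clones, Jun was modestly higher in all KO22 libraries, and Fos was lower in part of the KO22 libraries. Each sequence is the 200 bases before the RefSeq start, read 5′ to 3′ on the strand of the gene, and the capitals mark motif matches. Positions and counts below use that start.
Atf3, chr1:191183334-191183533 (-): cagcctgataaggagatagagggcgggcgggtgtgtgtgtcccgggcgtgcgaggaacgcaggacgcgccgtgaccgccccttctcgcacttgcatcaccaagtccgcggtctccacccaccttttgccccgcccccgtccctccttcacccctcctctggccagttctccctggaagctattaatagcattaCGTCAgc
Jun, chr4:95052223-95052422 (-): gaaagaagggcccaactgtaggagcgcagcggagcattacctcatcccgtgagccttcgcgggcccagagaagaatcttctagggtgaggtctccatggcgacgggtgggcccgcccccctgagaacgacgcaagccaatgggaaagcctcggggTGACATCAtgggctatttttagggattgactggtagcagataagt
Fos, chr12:85473690-85473889 (+): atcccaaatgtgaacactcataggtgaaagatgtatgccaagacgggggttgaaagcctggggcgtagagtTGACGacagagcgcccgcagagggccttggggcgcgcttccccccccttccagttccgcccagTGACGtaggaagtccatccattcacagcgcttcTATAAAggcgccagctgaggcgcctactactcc
The capitals mark a CRE octamer (TGACNTCA, the element bound by CREB, ATF and Jun proteins), a CRE core (TGACG) or a TATA box (TATAAA), each searched on both strands. In Atf3 the CRE core lies 7 to 3 bases before the RefSeq start and is read on the opposite strand. The closest matching GENCODE transcript begins 7 bases before that start, so in that annotation the core lies inside the transcript. In Jun the octamer lies 45 to 38 bases before the start. In Fos a CRE core lies 129 to 125 and another 66 to 62 bases before the start, and the TATA box lies 33 to 28 bases before it. The CRE core can lie inside an octamer whose free base is G. In windows of 250 bases, the octamer was found in 1 of the 4 genes and in 7.49% of 32851 promoters, the CRE core in 3 of the 4 and in 17.8%, and the TATA box in 1 of the 4 and in 12.4%. An AP-1 site (TGANTCA) was found in 0 of the 4 windows and in 6.75% of all promoters, a CArG box, the site of serum response factor, in 0 of the 4 and in 1.47%, and an EGR site (GCGNGGGCG) in 1 of the 4 (Fosb) and in 4.7%. These are matches of letters in a short window, so sites farther from the start or with other letters were not counted. No binding was measured.

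Before any knockout, the 10 genes spanned a wide range of levels. Per kilobase of exon, Egr1 led in WT mRPE at 25.4 ± 4.36 CPM per kb (SD, n = 4), followed by Fosl2 at 14.8 ± 7.87, Fosl1 at 8.66 ± 2.26 and Jun at 7.63 ± 0.404 CPM per kb. The ranges of these 4 neighbours overlapped from each gene to the next. Junb (3.92 ± 0.440 CPM per kb), which pairs with Fos proteins, and Fos (3.19 ± 0.527 CPM per kb), the founding member of its family, also overlapped each other and lay apart from Jun and from Ier2 (1.69 ± 0.518 CPM per kb). Jund (0.683 ± 0.181 CPM per kb), Atf3 (0.234 ± 0.106 CPM per kb) and Fosb (0.0956 ± 0.0134 CPM per kb) closed the order, and only the last pair overlapped. Ranked among the 19301 genes with a length that both tables hold, Egr1 stood at the 94.1 to 96.1 percentile per WT mRPE library and Atf3 at the 4.42 to 14.4 percentile.

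In WT RPE/choroid the order was headed by Egr1 (22.7 ± 15.2 CPM per kb, n = 3) and Jun (8.19 ± 1.97 CPM per kb), whose ranges overlapped. Fos, Junb and Fosl2 came next, at 3.09 ± 1.14, 2.68 ± 1.04 and 2.16 ± 0.537 CPM per kb, each overlapping its neighbour. Fosl1, the Fos family member known as Fra-1 that lacks a transactivation domain, stood at the 10.1 to 27 percentile in WT tissue and at the 73.9 to 87.7 percentile in WT mRPE. The 2 tables were normalized separately, so these percentiles are set side by side without a test. Jund levels carry a further limit, since the exons of a gene on the opposite strand, Gm11175, cover 52.6% of the exon bases of Jund and the sources used here do not state whether reads were counted by strand.

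**Figure D1:**
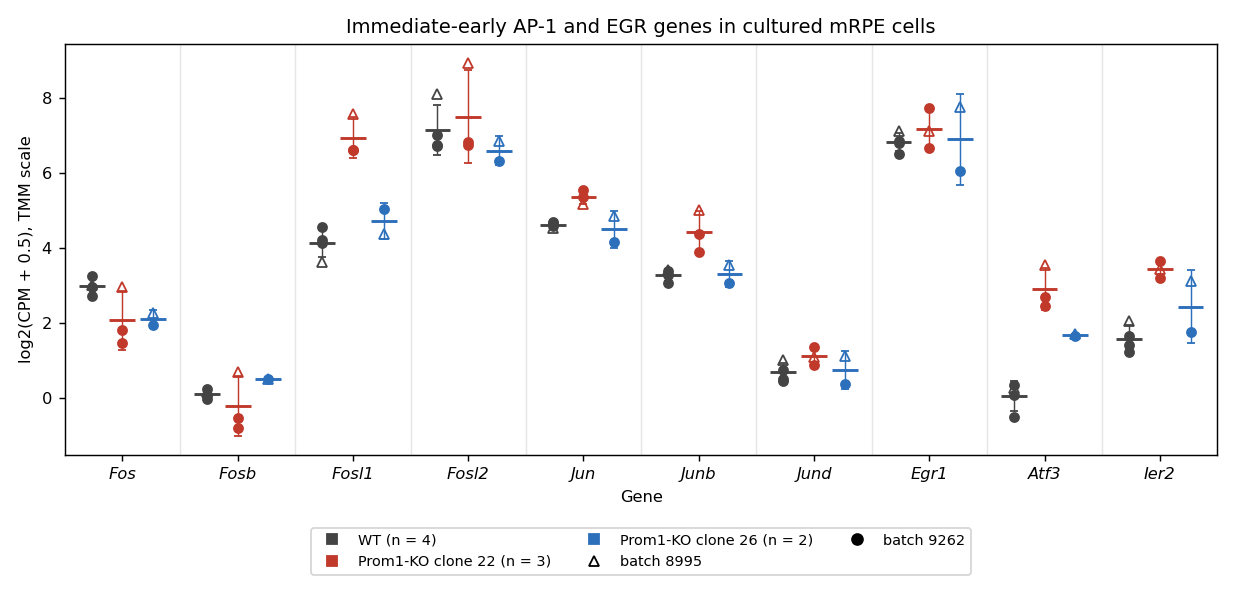
Level of each gene in the 9 mRPE libraries, as log2 of CPM (TMM scale) with 0.5 added, with 1 point a library, a bar at the group mean and whiskers of 1 SD. Open triangles are batch 8995 and filled circles batch 9262. Atf3, Fosl1 and Ier2 in KO22 lie above every WT point, while the open KO22 triangle of Fos sits among the WT points and the 2 filled KO22 circles below them.

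The comparison of KO22 with WT asked which of these genes differ in the clone with the larger set of libraries. Atf3, Fosl1 and Ier2 rose past both limits (an adjusted p below 0.05 and a log2 fold change larger than 1.2 in size), and none of the 10 fell past both. Thus 3 of 10 were called higher where 11.4% of all 20455 tested genes were, and 0 of 10 were called lower where 13.8% were (edgeR). On the adjusted p alone 6 of 10 passed, in either direction, against 53% of all genes, so that share is close to the background. KO22 and WT values did not overlap for 5 of 10 genes, against 50.1% of all genes.

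Atf3 (GRCm39, chromosome 1, 190902493 to 190950241, minus strand) encodes a bZIP factor that is nearly silent until stress induces it. It stood at 0.715, 0.206, 0.786 and 0.574 CPM in WT and at 11.2, 6.03 and 5.04 CPM in KO22. Every KO22 library lay above every WT library. The log2 fold change was 3.65 ± 0.33 (adjusted p = 2.29e-05, edgeR), a 12.5-fold higher level, although the WT values rest on only 18, 3, 8 and 8 counts. Over the alternatives tried the log2 fold change ran from 3.41 to 3.88 and every call was kept.

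Fosl1 (chromosome 19, 5497575 to 5505974, plus strand) is a late member of the Fos family that AP-1 itself induces. It stood at 12.0, 23.2, 17.2 and 18.0 CPM in WT and at 189.8, 98.4 and 98.0 CPM in KO22. No value overlapped, and the log2 fold change was 2.81 ± 0.29 (adjusted p = 4.62e-05, edgeR), or 7.03-fold. Per kilobase it moved to the head of the 10 genes in KO22, at 63.3 ± 26.0 CPM per kb, where it stood at the 97.5 to 98.8 percentile. A gene on the opposite strand, Ccdc85b, shares 1163 exon bases with Fosl1, which is 57.2% of the exon bases of Fosl1. Ccdc85b stood at 16.7, 26.5, 23.1 and 23.2 CPM in WT and at 199.9, 94.9 and 101.1 CPM in KO22 (log2 fold change 2.48 ± 0.27, adjusted p = 6.16e-05, edgeR). The level of Ccdc85b was thus high in the same libraries as that of Fosl1, and without the strand setting of the counting the RNA of Fosl1 and the RNA of Ccdc85b cannot be told apart.

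Ier2 (chromosome 8, 85387960 to 85389483, minus strand) is an intronless gene that serum and growth factors induce. It stood at 3.66, 1.85, 2.16 and 2.66 CPM in WT and at 10.5, 8.73 and 12.0 CPM in KO22. The KO22 libraries all lay above WT, with a log2 fold change of 1.99 ± 0.23 (adjusted p = 1.00e-04, edgeR).

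The Jun family passed the adjusted p alone where it passed at all. Jun, the main partner of Fos proteins in AP-1, stood at 22.9, 25.6, 23.7 and 25.1 CPM in WT and at 36.0, 40.7 and 46.6 CPM in KO22. The groups did not overlap and the log2 fold change was 0.76 ± 0.11 (adjusted p = 3.84e-04, edgeR), a 1.70-fold difference under the fold limit. Junos, an antisense RNA on the opposite strand, shares 16.6% of the exon bases of Jun and had a log2 fold change of 0.74 ± 0.18 (adjusted p = 0.00639, edgeR), so reads of these genes cannot be told apart where they overlap. Junb, which often opposes Jun in cell growth, stood at 10.2, 7.88, 9.23 and 9.98 CPM in WT and at 31.9, 14.5 and 20.3 CPM in KO22, again with no overlap. Its log2 fold change of 1.15 ± 0.20 (adjusted p = 9.66e-04, edgeR) fell just short of the limit of 1.2, and it passed when WT replicate 4 or KO22 replicate 2 was left out (1.23 and 1.33). Prdx2, on the opposite strand, shares 7.27% of the exon bases of Junb and had a log2 fold change of 1.06 ± 0.13. Jund, the least inducible Jun gene, stood at 1.55, 0.891, 1.18 and 0.933 CPM in WT and at 1.64, 1.35 and 2.10 CPM in KO22. Those groups overlapped, and its log2 fold change of 0.55 ± 0.32 did not pass (adjusted p = 0.173, edgeR). Gm11175, which covers 52.6% of the exon bases of Jund, was called higher in KO22 (1.42 ± 0.40, adjusted p = 0.0138, edgeR).

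Fos (chromosome 12, 85520658 to 85524047, plus strand) went the other way. It stood at 7.59, 6.10, 7.27 and 9.11 CPM in WT and at 7.26, 2.27 and 3.03 CPM in KO22. The first KO22 library, of batch 8995, lay within the WT range and both KO22 libraries of batch 9262 lay below it. The log2 fold change of -1.04 ± 0.32 passed the adjusted p (0.0206, edgeR) but not the fold limit. Leaving out WT replicate 1 or KO22 replicate 1, the only libraries of batch 8995 in this comparison, gave -1.54 and -1.52, past both limits. These are not separate checks, since the batch term takes up the library that remains and the estimate comes from batch 9262 alone. The adjusted p was lost (0.0511 to 0.110, edgeR) without WT replicate 3 or 4 (-1.01 and -0.89) and without KO22 replicate 2 or 3 (-0.77 and -1.02), and without the batch term it was 0.0780 (-0.87).

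Fosb, whose product resembles Fos and includes a stable short form in brain, was at the edge of detection, with 16, 10, 5 and 8 counts in WT and 13, 4 and 1 counts in KO22. In CPM it stood at 0.636, 0.686, 0.491 and 0.574 in WT and at 1.12, 0.193 and 0.0776 in KO22. A single KO22 library lay above WT and the others below, and the log2 fold change of -0.70 ± 0.61 did not pass (adjusted p = 0.362, edgeR). It became -1.95 without WT replicate 1 and -1.94 without KO22 replicate 1, past both limits. Both are again the estimate from batch 9262 alone. Fosl2, known as Fra-2, stood at 275.9, 128.7, 105.9 and 106.5 CPM in WT and at 491.4, 107.3 and 113.0 CPM in KO22. In both groups the library of batch 8995 was the high one, and the log2 fold change was 0.22 ± 0.18 (adjusted p = 0.328, edgeR). Egr1, which couples growth factor signals to its own feedback repressors, stood at 138.9, 91.0, 112.1 and 114.4 CPM in WT and at 138.3, 101.6 and 213.3 CPM in KO22. The groups overlapped and the log2 fold change of 0.40 ± 0.23 did not pass (adjusted p = 0.175, edgeR).

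**Figure D2:**
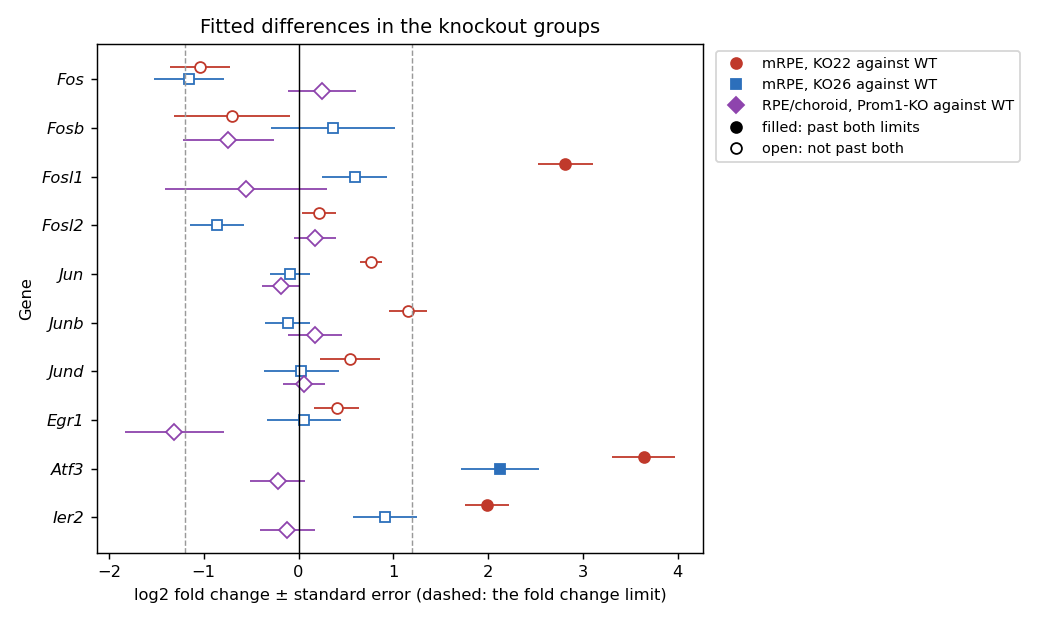
Fitted log2 fold change of each gene with its standard error, for KO22 and KO26 against WT mRPE and for RPE/choroid labelled Prom1-KO against WT. Filled symbols pass both limits, which are the 3 KO22 symbols of Atf3 (3.65), Fosl1 (2.81) and Ier2 (1.99) and the KO26 symbol of Atf3 (2.13). The 2 mRPE comparisons share their WT libraries.

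The study itself set both libraries of KO26 aside as outliers. The comparison of KO26 with WT, which shares the WT libraries with the preceding one, left a single call among the 10 genes. Atf3 stood at 2.78 and 2.66 CPM in KO26, above all 4 WT libraries, with a log2 fold change of 2.13 ± 0.41 (adjusted p = 0.0227, edgeR). That makes 1 of 10 called higher against 1.21% of 20737 genes, and 0 of 10 called lower against 0.719%. The call is not stable: it was lost without any 1 of the 4 WT or the 2 KO26 libraries, with log2 fold changes of 1.75 to 2.53 and adjusted p-values of 0.0526 to 0.0803 (edgeR). Groups did not overlap for 3 of 10 genes (Fos, Fosb and Atf3), against 24.7% of all genes. Fos stood at 4.36 and 3.35 CPM in KO26, below every WT library, but its log2 fold change of -1.15 ± 0.37 did not pass (adjusted p = 0.119, edgeR). Fos passed the adjusted p, under the fold limit, with WT and KO26 libraries alone (-0.997, adjusted p = 0.0107, edgeR). The same held without KO22 replicate 1 (-0.966, adjusted p = 0.0118, edgeR) and with the DESeq2 test (-1.175, adjusted p = 0.0415). It did not pass under the other alternatives run with a test.

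Ier2 stood at 8.26 and 2.89 CPM in KO26, the first above WT and the second inside its range, with a log2 fold change of 0.91 ± 0.34 (adjusted p = 0.169, edgeR). Fosl1 stood at 20.4 and 32.7 CPM, for a log2 fold change of 0.59 ± 0.34 (adjusted p = 0.355, edgeR). Without KO22 replicate 1, Ier2 (0.83, adjusted p = 0.0415, edgeR) and Fosl1 (0.75, adjusted p = 0.00111, edgeR) passed the adjusted p, under the fold limit. Fosl1 also passed it with WT and KO26 libraries alone (0.73, adjusted p = 0.00419, edgeR). Egr1 was the most uneven, with 215.1 CPM in batch 8995 and 65.5 CPM in batch 9262, 1 above and 1 below all WT libraries. Its log2 fold change was 0.05 ± 0.39 (adjusted p = 0.954, edgeR). The values of Fosl2 were 116.3 and 80.0 CPM, and its log2 fold change of -0.86 ± 0.28 (adjusted p = 0.126, edgeR) became -1.59 without KO26 replicate 2. Fosl2 passed the adjusted p, under the fold limit, with WT and KO26 libraries alone (-0.83, adjusted p = 0.00284, edgeR). It also did so without KO22 replicate 1 (-0.81, adjusted p = 0.0016, edgeR). Jun (28.4 and 17.4 CPM), Junb (11.3 and 7.87 CPM), Jund (1.67 and 0.810 CPM) and Fosb (0.928 and 0.925 CPM) had log2 fold changes of -0.09, -0.12, 0.03 and 0.36, and none passed.

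KO22 and KO26 were then set against each other, to see where the 2 Prom1-KO clones differ. Fosl1 (log2 fold change 2.29 ± 0.38, adjusted p = 0.00110, edgeR), Atf3 (1.51 ± 0.38, adjusted p = 0.0112) and Junb (1.27 ± 0.25, adjusted p = 0.00294) were higher in KO22 past both limits. This was 3 of 10 against 7.56% of all genes, and 0 of 10 were called lower against 10.7%. On the adjusted p alone 6 of 10 passed against 34.4% of all genes, the others being Fosl2 (1.14 ± 0.30), Ier2 (1.10 ± 0.35) and Jun (0.84 ± 0.22). Without KO22 replicate 1, Fosl1 remained called at 1.59. Fosl2 no longer passed without KO26 replicate 1 (0.62), Jun without KO26 replicate 2 (0.40), and Ier2 without WT replicate 1 or 3 (1.07 and 1.10), KO22 replicate 3 (0.90) or KO26 replicate 2 (0.58). Fosl2 and Ier2 no longer passed without the batch term either (1.27 and 0.86), and all 3 lost the adjusted p with the libraries of the 2 clones alone (0.103 to 0.162, edgeR). The Atf3 call was lost without KO22 replicate 1 (1.198), without KO26 replicate 1 (1.12) and with the libraries of the 2 clones alone (1.46). The Junb call was lost without KO22 replicate 1 (1.007) and without the batch term (1.197). Fosb became lower in KO22 past both limits without KO22 replicate 1 (-2.55).

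Batches were compared next. Over the 9 libraries, Fosl2 was lower in batch 9262 than in batch 8995 by a log2 fold change of -1.42 ± 0.22 (adjusted p = 0.00583, edgeR), which is 1 of 10 called lower against 0.661% of all genes, and 0 of 10 were called higher against 1.91%. Without KO22 replicate 1 it was -1.0, under the fold limit. The log2 fold change between batches was negative for 9 of the 10 genes, with a median of -0.58 beside 0.03 over all genes. The difference between KO22 and WT also changed with the batch. Tested as an interaction, it was lower in batch 9262 than in batch 8995 for Fosb (-2.77 ± 0.96, adjusted p = 0.0377), Fosl1 (-1.66 ± 0.20, adjusted p = 4.95e-06) and Fos (-1.47 ± 0.38, adjusted p = 0.00624, edgeR). That is 3 of 10 called lower against 5.19% of all genes, and 0 of 10 called higher against 5.88%. The Fosb call was lost without WT replicate 2 or 4 or without KO22 replicate 3 (-2.64, -2.80 and -2.47, adjusted p = 0.0591 to 0.0795, edgeR). Fosl2 (-0.89 ± 0.19) passed the adjusted p alone, which makes 4 of 10 against 26.6%. Junb (-0.72 ± 0.27) did not pass (adjusted p = 0.0559, edgeR), though with DESeq2 size factors its adjusted p was 0.0409 (-0.77, edgeR). With 1 library left out the Junb value ran from -1.04 to -0.55. The spread behind this test comes from batch 9262, since batch 8995 holds 1 library of each group, so a batch and a single library cannot be told apart.

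Within batch 8995 the log2 ratio of KO22 to WT, from CPM with 0.5 added, was -0.06 for Fos, 0.52 for Fosb and 0.83 for Fosl2. Within batch 9262 the same ratios were -1.34, -0.77 and -0.04. Fosl1 was higher in both batches (3.93 and 2.32), and so were Atf3 (3.26 and 2.60), Ier2 (1.40 and 1.99), Junb (1.597 and 0.893) and Jun (0.64 and 0.80). For KO26 the ratios of Atf3 were 1.43 and 1.67 and those of Fos -0.73 and -1.03, while Egr1 went from 0.63 in batch 8995 to -0.68 in batch 9262.

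**Figure D3:**
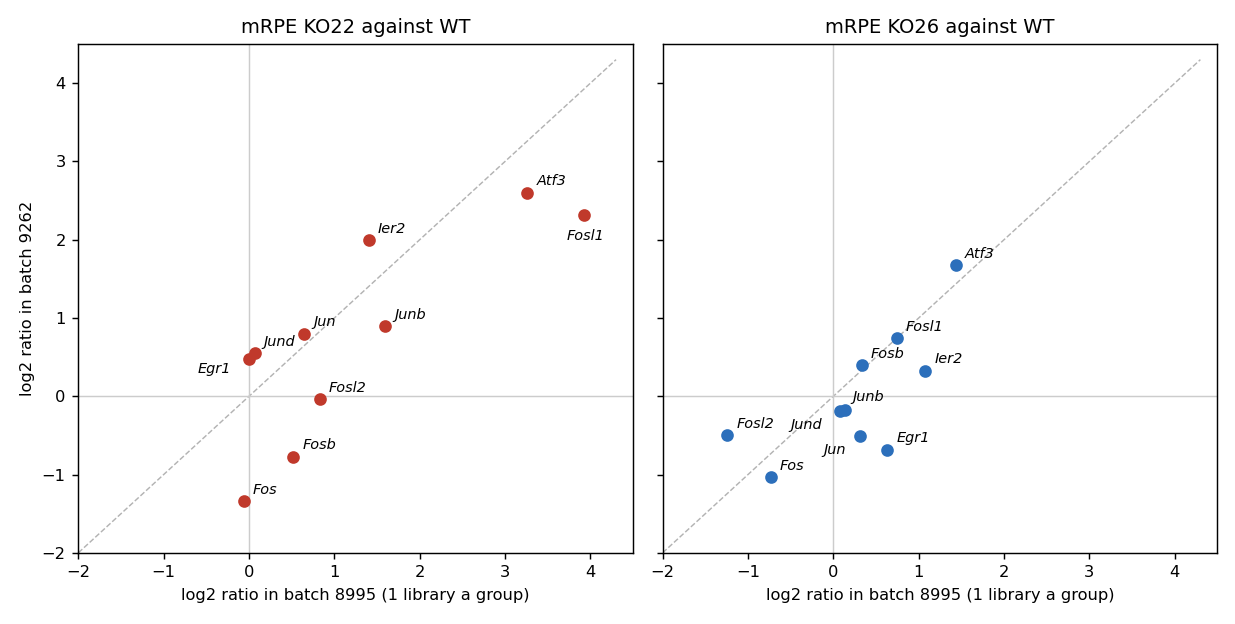
Log2 ratio of each clone to WT within batch 8995 (horizontal, 1 library a group) and within batch 9262 (vertical), from CPM with 0.5 added. Points on the dashed line have the same ratio in both batches. Atf3 lies in the upper right of both panels, and Fos lies near 0 in batch 8995 and at -1.34 in batch 9262 for KO22.

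In the RPE/choroid none of the 10 genes passed. Of 24926 genes tested with edgeR, 0% were called higher and 0.189% lower, 2068 had an unadjusted p under 0.05, and 1 of the 10 members, Egr1, was among these. DESeq2 called 84 genes higher and 189 lower, with 0 of the 10 among them. WT values and those of the libraries labelled Prom1-KO overlapped for all 10 genes, while 14.6% of all genes did not overlap. Egr1 stood at 169.0, 104.6 and 32.5 CPM in WT and at 30.5, 43.6 and 49.6 CPM in the libraries labelled Prom1-KO. A pair of WT libraries was high and the third lay inside the knockout range, and the log2 fold change of -1.31 ± 0.53 did not pass (adjusted p = 0.576, edgeR). In bulk tissue, fewer cells of a type and less RNA per cell cannot be told apart, and the summed RPE markers given at the start were lower in the same group. So were 8 endothelial markers, which sum to 101.1 to 203.5 CPM in WT and 70.2 to 91.7 CPM in the other group. In WT replicate 3, the WT library with the low Egr1 value, 10 photoreceptor markers sum to 1206 CPM, against 44.7 and 95.6 CPM in the other WT libraries and 22.2 to 588 CPM in the libraries labelled Prom1-KO. The part of these markers in the Egr1 values was not tested.

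Fos stood at 10.2, 6.77 and 4.88 CPM in WT tissue and at 5.49, 8.03 and 12.5 CPM in the libraries labelled Prom1-KO. The highest of these is replicate 3, the library with the mitochondrial share of 84.2%, and the log2 fold change of 0.25 ± 0.36 became -0.12 without it. Atf3 stood at 2.02, 1.76 and 1.31 CPM in WT and at 1.24, 1.18 and 1.99 CPM in the libraries labelled Prom1-KO, for a log2 fold change of -0.22 ± 0.29 (adjusted p = 0.892, edgeR). Fosl1 had 48, 36 and 18 counts in WT and 26, 30 and 0 counts in the libraries labelled Prom1-KO, with the 0 in replicate 3, and its log2 fold change was -0.56 ± 0.85. Fosb stood at 0.271 to 0.870 CPM in WT and 0.252 to 0.365 CPM in the other group. Fosl2, Jun, Junb, Jund and Ier2 had log2 fold changes between -0.19 and 0.17, with SE of 0.20 to 0.29, which leaves differences of that order undetectable with 3 libraries a group.

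**Figure D4:**
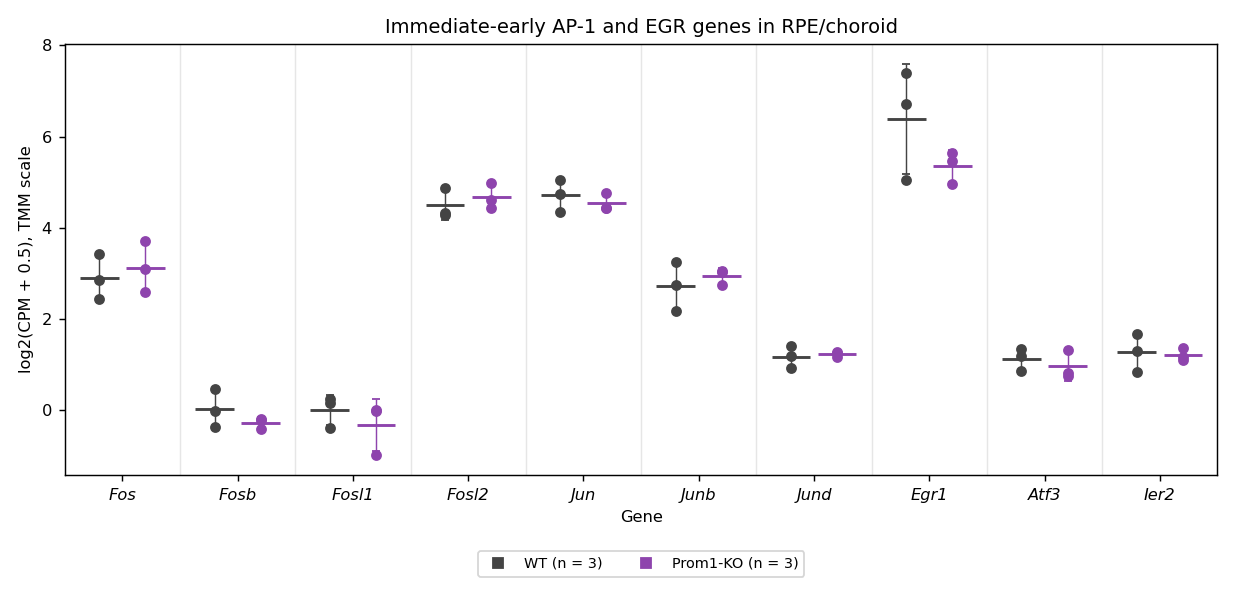
Level of each gene in the 6 RPE/choroid libraries, as log2 of CPM (TMM scale) with 0.5 added, with 1 point a library, a bar at the group mean and whiskers of 1 SD. The points of WT and of the libraries labelled Prom1-KO overlap for every gene, and the lowest Fosl1 point is a library with 0 counts.

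Across the 9 mRPE libraries, Fos was most like Celf2 (Pearson r = 0.955 of log2 CPM), Anxa3, Insyn1, Chfr and Wdr45 (r = 0.941), of 20736 other genes. Across the 6 RPE/choroid libraries it was most like Uck2 (r = 0.995), Ccdc179, Znrf2, Dynlrb1 and Tex35 (r = 0.990). These are descriptions over libraries that share groups and batches. None of the other members was among those 5 genes in either table. In mRPE r with Fos was 0.498 for Fosb, -0.407 for Jun, -0.541 for Atf3, -0.121 for Junb and -0.511 for Ier2. In the RPE/choroid it was 0.353, 0.440, 0.725, 0.821 and 0.796 in that order. Junb and Ier2 ranked 1212 and 1455 of 24925 other genes there.

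The genes around this set were then counted by role, as lists beside the 10 members. The lists were chosen with earlier results of these data known, so their shares are descriptions and not evidence about a pathway. Each count in KO22 against WT stands beside the 11.4% of all genes called higher and the 13.8% called lower there. Upstream, the kinases and factors that switch immediate-early genes on (SRF, its TCF partners, CREB and MAP kinases) had 22 of 22 genes tested in KO22 against WT, with 1 called higher and 0 lower and a median log2 fold change of 0.29, beside -0.03 over all genes. The called gene was Map3k5, the stress kinase ASK1, which rose from 0.617 to 0.933 CPM in WT to 21.9 to 24.2 CPM in KO22 (log2 fold change 4.98 ± 0.19, adjusted p = 3.26e-07, edgeR). The other bZIP genes of AP-1 had 0 of 9 called higher and 1 lower, Maf, which fell by 2.26 on the log2 scale. Of the other EGR and NAB genes, 2 of 4 rose and 0 fell. Egr3, a close relative of Egr1, stood at 4.12 to 5.53 CPM in WT and 9.16 to 34.9 CPM in KO22 (1.73 ± 0.31, adjusted p = 0.00133, edgeR), and Nab1, a corepressor of EGR proteins, stood at 29.7 to 39.9 and 125.4 to 137.8 CPM (1.88 ± 0.11, adjusted p = 1.89e-06). The high end of Egr3 is KO22 replicate 1, and the Egr3 difference changed with the batch (-1.51 ± 0.34), past both limits. Egr2 (0.12 ± 0.25) and Nab2 (-0.25 ± 0.12) did not pass.

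Among 28 other immediate-early genes, 9 were called higher and 4 lower in KO22, with a median of 0.36. Rgs2, a regulator of G protein signalling, stood at 0 to 0.834 CPM in WT and 13.3 to 101.3 CPM in KO22 (log2 fold change 6.73 ± 0.34). Its highest value was in KO22 replicate 1. Nr4a3, an orphan nuclear receptor, had a log2 fold change of 2.84 ± 0.36. From batch 9262 alone, reached by leaving out WT replicate 1 or KO22 replicate 1, it was 2.23 or 2.25. Ccn2, a matricellular protein, fell by 1.89 on the log2 scale. Of 17 feedback genes of the ERK pathway, 6 were called higher and 1 lower, with a median of 0.90. Dusp4, a phosphatase of MAP kinases, had a log2 fold change of 3.08 ± 0.15 and Spry4 one of 2.91 ± 0.19, while Spry2 fell by 1.53 on the log2 scale. From batch 9262 alone, without WT replicate 1 or KO22 replicate 1, the fall of Spry2 was 1.18 or 1.16, under the fold limit.

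Of 22 genes known as AP-1 targets, a list chosen with earlier results known, 15 were called higher and 0 lower in KO22, with a median of 1.51. Areg and Ereg, ligands of the EGF receptor, led with 5.39 ± 0.51 and 5.39 ± 0.47, and Ereg stood at 4.33 to 6.87 CPM in WT and 115.2 to 656.7 CPM in KO22. The high end of both is KO22 replicate 1, and without it the log2 fold changes were 4.21 and 4.61. Without WT replicate 1 they were 4.17 and 4.59, which is again the estimate from batch 9262 alone. The difference also changed with the batch for Areg (-2.47 ± 0.91) and Ereg (-2.65 ± 0.28), both past the limits. Of the 22 AP-1 targets, 7 were called lower and 3 higher in that interaction, beside 5.19% and 5.88% of all genes. Of 11 genes known as EGR1 targets, 3 were called higher (Icam1 3.81 ± 0.36 at the head) and 2 lower (F3, tissue factor, which fell by 2.85 on the log2 scale). The ATF4 and ATF3 stress list had 4 of 10 called higher, among them Asns (1.61 ± 0.20), which makes asparagine, and the heat shock list had 5 of 12 called higher, among them Dnajb1 (1.90 ± 0.12), with 0 called lower in either. Of the stress list, Ddit3 was lower in all KO22 libraries (-0.57 ± 0.18, adjusted p = 0.025, edgeR), under the fold limit. Against KO26 it was called lower (-1.22 ± 0.22, adjusted p = 0.00178, edgeR), and the list median was -0.26. Trib3 did not pass in KO22 (1.22 ± 0.55, adjusted p = 0.0916, edgeR). Cebpb, which was called, was under the fold limit from batch 9262 alone (0.99 and 1.02).

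In KO26 against WT the same lists gave few calls. Rgs2 (2.08 ± 0.47) of the other immediate-early genes, Spry4 (1.92 ± 0.40) of the ERK feedback genes, Mmp9 (2.02 ± 0.29) of the AP-1 targets, and Trib3 (2.43 ± 0.54) and Asns (1.55 ± 0.22) of the stress list were called higher, and none of the listed genes was called lower. In that order these are 1 of 28, 1 of 17, 1 of 22 and 2 of 10 tested genes. Of all genes 1.21% were called higher and 0.719% lower. The KO26 values of Rgs2 and Spry4 overlapped those of WT, and the calls of Rgs2, Spry4 and Trib3 were each lost in several of the fits that left out 1 library. Spry4 was at 0.78 without KO26 replicate 1, while the Trib3 call was kept without WT replicate 1, at 3.65. Without the batch term the calls of Asns (1.71, adjusted p = 0.103), Rgs2, Spry4 and Trib3 were lost as well. The median of the AP-1 targets was 0.17 and that of the stress list 0.75, beside 0.03 over all genes. Whether KO22 and KO26 differ was tested gene by gene, and 12 of 22 AP-1 targets were called higher in KO22 than in KO26, with 0 lower and a median of 1.42, beside 7.56% of all genes called higher and 10.7% lower. In the RPE/choroid 2 listed genes were called, both lower in the libraries labelled Prom1-KO. They are 1 of 17 ERK feedback genes and 1 of 29 other immediate-early genes, beside 0.189% of all genes called lower and 0% higher. Spry4 stood at 6.996 to 7.256 CPM in WT and 1.92 to 2.16 CPM in the other group (log2 fold change -1.81 ± 0.14, adjusted p = 0.00556, edgeR), and Nr4a3 at 15.1 to 22.4 and 4.99 to 7.26 CPM (-1.66 ± 0.22, adjusted p = 0.0471). The Nr4a3 call was lost whichever of the 6 libraries was left out (-1.83 to -1.53), and the Spry4 call without Prom1-KO replicate 2 (-1.86, adjusted p = 0.0546). The lower RPE and endothelial marker sums stand in the same group, and their part in these calls was not tested.

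**Figure D5:**
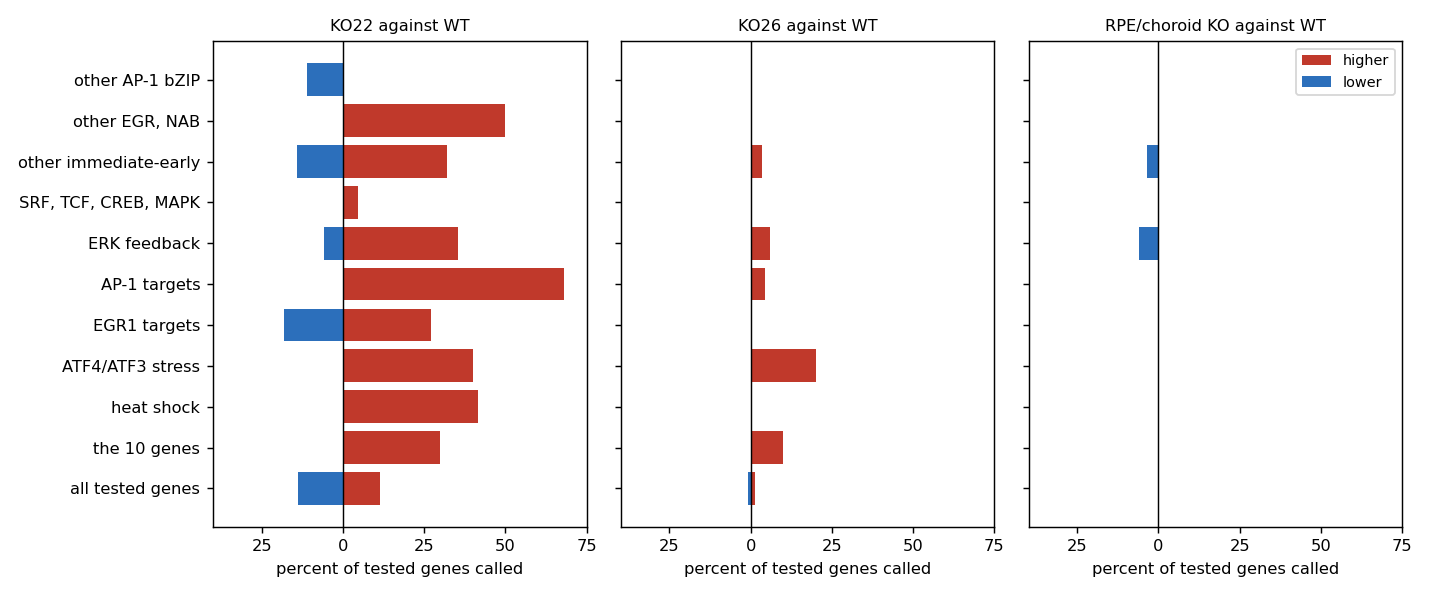
Share of the tested genes of each list called higher (to the right) or lower (to the left), for KO22 and KO26 against WT mRPE and for RPE/choroid labelled Prom1-KO against WT, with the 10 genes and all tested genes at the bottom. In KO22 the AP-1 target list has the longest bar, at 15 of 22 genes higher. The lists were chosen with earlier results of these data known.

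The cultures of the clones also differed in markers of other cell types. The summed level of 5 fibroblast markers was 5565 to 8668 CPM in KO22, below 12800 to 17500 CPM in WT, and that of 5 endothelial markers was 3.49 to 5.40 CPM in KO22 against 153.2 to 236.2 CPM in WT, with Cdh5, Emcn and Cldn5 not listed in the mRPE table. In KO26 these sums were 19870 to 21790 CPM and 56.7 to 74.1 CPM. The part of these differences in the values of the 10 genes was not tested.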

How the data were processed

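RNA-seq libraries of polyA RNA from cultured mRPE cells and from RPE/choroid were analysed. Per the labels and the study's methods, the authors trimmed reads with Trim Galore 0.6.7, aligned them to mm39 with STAR and deposited raw counts per gene, and left out genes with low counts before deposit. The labels name an NEB stranded kit and the methods a TruSeq stranded kit, and the strand setting of the counting is not given in the sources used here. The deposited counts were used directly, and the authors' normalized values were not used. Total counts were 8076188 to 61766179 per library, and the number of reads on a gene limits the precision of low genes such as Fosb.

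A gene entered a fit if 3 or more libraries held 5 or more counts of it. Fits used edgeR 4.0.16 (R 4.3.3) and its quasi-likelihood F test on TMM-normalized libraries, the mRPE fits included a batch term, and p-values were given Benjamini-Hochberg adjustment over all tested genes. A gene was called where the adjusted p was below 0.05 and the log2 fold change exceeded 1.2 in size. KO22 was compared with WT over 7 libraries, the other mRPE comparisons used 1 fit over 9, and the RPE/choroid was compared over 6. Standard errors were obtained from F, as the size of the log2 fold change over its root, and all tests were two-sided. CPM are on the TMM scale, and lengths are the union of exons of GENCODE vM39 (GRCm39). Percentiles rank CPM per kb within a library. The script was tested on simulated data.

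Groups come from the labels, batches from the library names. The members and the lists were chosen with earlier results of these data known. The genes named are the 10 members, the called gene with the largest change in each direction of each list, all EGR and NAB genes, the 5 genes most like Fos in each table, the genes whose exons overlap a member's, and Prom1, the last 2 groups added after values were seen. Alternatives were DESeq2 1.42.0 and its size factors, other count filters, no fold limit, no batch term, other sets of libraries, and each library left out. Leaving out mitochondrial genes was chosen after seeing the data. Promoters are RefSeq windows on GRCm38.p6. Protein sequences were not used here.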

Additional observations from a re-analysis of the deposited data

Results flagged for a closer look

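In WT mRPE, Fosl2 in replicate 1, of batch 8995, stood at 275.9 CPM, far from the other 3 libraries at 105.9 to 128.7 CPM (gap over range 0.866). Only WT mRPE, with 4 libraries, was large enough for this check, and 10 genes were checked. Chance flags about 1 in 20 groups whose libraries vary alike. Here replicate 1 is the only WT library of batch 8995, so that rate need not hold and the batch and the library cannot be told apart. Fosl2 was also the gene called lower in batch 9262 (-1.42 ± 0.22).

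The clones differed from each other, by the test of KO22 against KO26, for Fosl1 (difference of log2 fold changes 2.29), Atf3 (1.51), Junb (1.27), Fosl2 (1.14), Ier2 (1.10) and Jun (0.84), with adjusted p-values of 0.00110 to 0.0327 (edgeR). Each was higher in KO22. With the libraries of the 2 clones alone, Atf3, Fosl2, Ier2 and Jun did not pass the adjusted p (0.0547 to 0.162, edgeR). Without KO26 replicate 1 the values of Atf3 and Fosl2 were 1.12 and 0.62, and without KO26 replicate 2 those of Jun and Ier2 were 0.40 and 0.58.

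The difference between KO22 and WT was lower in batch 9262 than in batch 8995, by the interaction test, for Fosb (-2.77), Fosl1 (-1.66), Fos (-1.47) and Fosl2 (-0.89), with adjusted p-values of 4.95e-06 to 0.0377 (edgeR). The Fosb value no longer passed in 3 of 5 fits that left out 1 library (adjusted p = 0.0591 to 0.0795). Batch 8995 holds 1 library of each group.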

How the results depend on the processing

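Atf3, Fosl1 and Ier2 in KO22 against WT kept direction and call under all alternatives run with a test. Without a limit on the fold change, 5 of the 10 genes were higher and 1 lower in KO22 than WT, beside 5506 and 5331 of all 20455 genes. Against KO26, 6 of the 10 were higher in KO22, beside 3388 of all 20737 genes. Leaving out 1 library at a time, the counts of called genes ran from 3 to 4 higher and from 0 to 2 lower for KO22 against WT, from 0 to 1 in either direction for KO26 against WT, from 2 to 4 higher and 0 to 1 lower for KO22 against KO26, from 0 to 1 lower between batches, and from 2 to 3 lower for the KO22 effect by batch, where DESeq2 called 2 and gave Fosb no adjusted p. Of all genes, the main fits called 11.4% higher and 13.8% lower for KO22 against WT, and 1.21% and 0.719% for KO26 against WT. These shares were 7.56% and 10.7% for KO22 against KO26, with 0.661% lower between batches and 5.19% lower for the KO22 effect by batch. Signs turned only for genes that did not pass both limits (38 values), and the cause was not tested. Junb in KO26 against WT became 0.048 without the batch term, Jund and Egr1 became -0.080 and -0.13 with WT and KO26 alone, Jun between batches became 0.13 in the 4 WT libraries, and Fos in the RPE/choroid became -0.12 without mitochondrial genes and KO replicate 3. With 1 library left out, log2 fold changes ran, in KO22 against WT, from -0.060 to 0.30 for Fosl2 and -0.085 to 0.58 for Egr1. In KO26 against WT they ran from -0.25 to 0.99 for Fosb, -0.54 to 0.37 for Jun, -0.39 to 0.31 for Jund and -0.76 to 0.82 for Egr1. In KO22 against KO26 they ran from -0.52 to 0.38 for Fos and -0.42 to 1.16 for Egr1, and between batches from -0.32 to 0.70 for Fosl1 and -0.19 to 0.19 for Jun. In the RPE/choroid they ran from -0.12 to 0.57 for Fos, -0.0070 to 0.40 for Fosl2, -0.076 to 0.50 for Junb, -0.093 to 0.23 for Jund and -0.35 to 0.16 for Ier2, and for the KO22 effect by batch from -0.021 to 0.18 for Jun and -0.13 to 0.95 for Egr1. Where leaving out a library left a group with 1, that library was assumed to vary like the others. No paired analysis was possible because the labels give the groups no shared replicate numbers, and the block used in the mRPE fits was the batch. Low counts limit Fosb, Atf3 and Jund in mRPE and Fosl1 in the RPE/choroid.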
